A study of Homo sapiens with 15 samples.

Results

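The genes described here code for splicing regulators: SR proteins, hnRNPs, the CLK kinases and the U2 and LUC7-like factors that recognise the ends of introns. Members were chosen by gene name alone, with no measured value in the rule, and they number 55: 12 SR genes, the 2 Tra2 genes, 21 hnRNP genes, 4 CLK genes, 11 genes of the U2 snRNP and U2AF, 3 LUC7-like genes and the 2 SRRM genes. The 22Rv1 table held all 55 among its 14296 genes, in 103 of 22542 rows, and the LNCaP table held 53 of 14176 genes in 99 of 22169 rows. The pseudogenes HNRNPA1P48 and HNRNPA3P6 were left out. A gene can have up to 2 rows, one under its name, called the mature row below, and one with the suffix .primary, called the primary row. The sources used here do not state what the suffix means, although the word reads like primary transcript. Both rows were present for 48 members in 22Rv1 and 46 in LNCaP. The 22Rv1 table gave only a mature row for HNRNPA0, HNRNPA1L2, HNRNPH2, LUC7L2, SF3B5, SRSF2 and SRSF8. In LNCaP that was so for HNRNPA0, HNRNPH2, HNRNPU, LUC7L2, SF3B5, SF3B6 and SRSF2, and HNRNPA1L2 and SRSF12 were not analysed there.

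SR proteins bind enhancer sequences in exons and help the spliceosome to choose splice sites, whereas hnRNPs coat nascent RNA and often oppose that choice. CLK kinases phosphorylate SR proteins and release them from nuclear speckles. Transcripts of many of these genes are themselves regulated by splicing, through poison exons and retained introns. Retained introns hold a part of the RNA back in the nucleus, so the balance of unspliced and spliced RNA is a measured property of the family.

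RNA immunoprecipitation followed by sequencing (RIP-seq) was done in 22Rv1 and LNCaP, both established human prostate cancer cell lines. The antibodies were raised against Brg1, the ATPase of the SWI/SNF chromatin remodeller that SMARCA4 encodes, against Sfpq, a paraspeckle RNA-binding protein, or were non-specific IgG, and Input was RNA that had not been precipitated. The 22Rv1 groups were Brg1 (2 libraries), Sfpq (2), IgG (3) and Input (2), and the LNCaP groups were Brg1, IgG and Input with 2 libraries each. All cells came from ATCC, grew in RPMI1640 with serum and were fixed in formaldehyde before precipitation. The labels give no treatment. They do not say whether the lettered replicates came from separate cultures, so p-values rest on the spread between these libraries, which may be technical. The test used draws the spread of each row towards that of rows of similar level. In LNCaP the primary rows of HNRNPD and SRRM2 had the same rounded standard error, although the libraries of SRRM2 lay further apart. A p-value therefore does not show how well the libraries agree for that gene, and the library values are given beside it for many rows.

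Recovered reads per library ran from 7139669 to 47871438 in the 22Rv1 Brg1, Sfpq and Input libraries and from 6367908 to 7506724 in the LNCaP Brg1 and Input libraries. IgG was much shallower, with 490879 to 4424105 reads in 22Rv1 and only 22184 and 46297 in LNCaP. In the LNCaP IgG libraries 83 and 78 of the 99 member rows held at most 3 reads, so LNCaP IgG was tested against no other group. It entered an alternative fit of all groups of the line, and its pooled reads are described without a test. Of 9 luminal prostate markers, all had a row in LNCaP, where the KLK3 rows summed to 1457 and 1441 RPM (reads scaled to 1000000 per library) in Input. In 22Rv1 Input TMPRSS2 was at 4.83 and 4.49 RPM, while KLK2, KLK3 and FOLH1 were not analysed there. COL1A1, a fibroblast marker, was at 17.57 to 19.95 RPM in the Inputs of both lines, VWF, an endothelial marker, at 32.3 and 33.7 RPM in LNCaP, and the other 8 fibroblast, endothelial and leukocyte markers were not analysed here.

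The members' share of all reads was small and differed between precipitates. In 22Rv1 they made up 1.33% of reads in both Inputs, 0.998% and 1.07% in the Brg1 libraries, 1.57% and 1.42% in the Sfpq libraries, and 0.950%, 0.929% and 1.26% in IgG. Both Brg1 values lay below both Inputs and both Sfpq values lay above them. In LNCaP the members made up 0.920% and 0.815% of Brg1 reads and 0.858% and 0.826% of Input reads, and those ranges overlapped. The part of the members' reads that sat in primary rows was 24.6% and 22.0% in 22Rv1 Brg1 libraries against 19.74% and 18.02% in Input. Over all rows of the table the same part was 64.2% ± 2.07 (SD, n = 2) for Brg1 against 36.5% ± 2.44 (SD, n = 2) for Input. The gap between Brg1 and Input was thus 4.45 percentage points over the members and 27.7 over all rows. In 22Rv1 IgG the part was 62.5%, 59.5% and 39.1% over all rows, and 21.0%, 23.2% and 15.3% over the members. IgG thus lay between Input and Brg1 over all rows and overlapped both over the members. In LNCaP it was 16.5% and 23.5% over the members in Brg1, overlapping the 26.6% and 21.9% of Input, while over all rows it was 55.7% ± 6.86 (SD, n = 2) against 38.7% ± 5.02 (SD, n = 2).

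The balance within each gene was measured as the ratio of its primary to its mature row, log2((primary RPM + 1)/(mature RPM + 1)), which does not depend on how libraries are scaled apart from the added 1. Across the 8246 genes of 22Rv1 with both rows, the median ratio was higher by 1.10 (log2) in Brg1 than in Input, whereas over the 48 members the median difference was 0.08. Of the members 11 were called higher and 4 lower, 31.2% of them, against 68.5% of all genes called in either direction with 67.6% called higher and 0.897% lower (limma, adjusted p under 0.05). The 11 with a higher ratio, named after their values were seen, were HNRNPD (2.12), HNRNPUL1 (1.51), TRA2A (1.42), CLK3 (1.35), SRSF12 (1.17), SRSF4 (1.11), SF3B6 (0.94), HNRNPF (0.93), HNRNPAB (0.85), SRSF9 (0.83) and SRSF1 (0.65). The 4 with a lower ratio were HNRNPU (-2.24), SF3B4 (-1.83), LUC7L (-1.10) and HNRNPH1 (-0.66). Without Brg1 replicate A 9 members were called instead of 15. When the IgG libraries joined the fit, which then shares one estimate of the spread across all groups, no member and none of the 8246 genes was called by limma, with 2 members at an unadjusted p under 0.05.

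**Figure D1:**
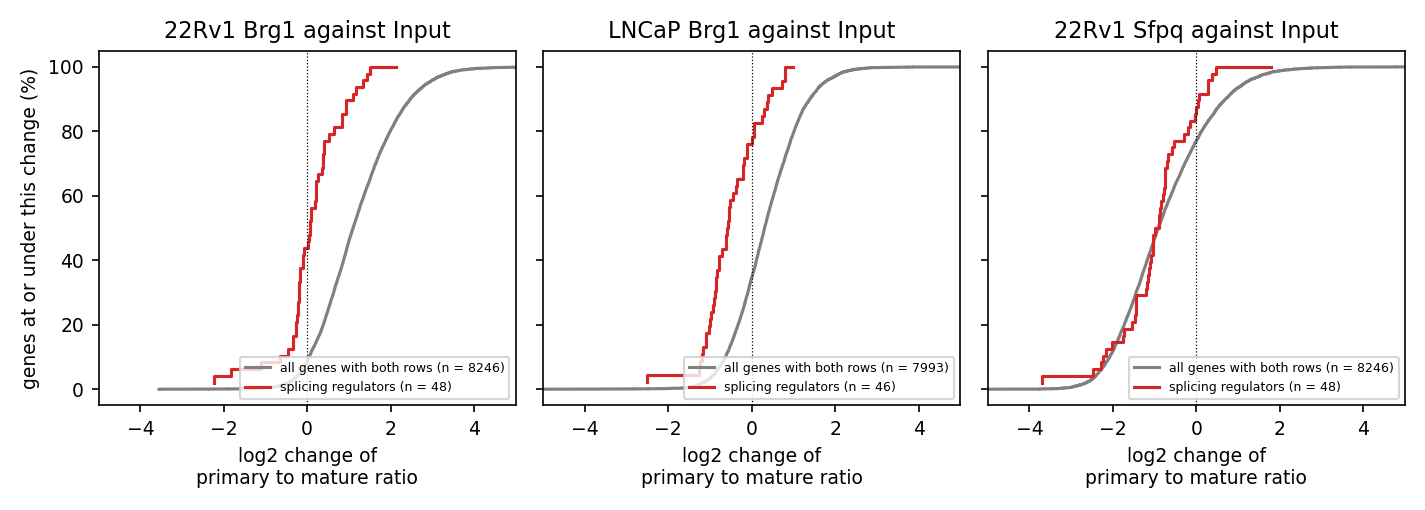
Cumulative percent of genes (vertical axis) against the log2 difference in primary to mature ratio (horizontal axis), in 1 panel for each comparison, with all genes in grey and splicing regulator genes in red. In 22Rv1 Brg1 against Input the red curve rises far to the left of the grey one, with medians of 0.08 and 1.10, while for Sfpq the curves lie close together, with medians of -0.89 and -0.91.

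In LNCaP the ratio differed by a median of 0.31 between Brg1 and Input over 7993 genes and by -0.56 over the 46 members. The calls were 0 higher and 2 lower among the members, where 13.3% of all genes were called and 12.1% were higher. At an unadjusted p under 0.05, 1 member was higher and 12 were lower (limma). The 2 called were SF3B4 (-2.50, SE 0.47, adjusted p = 1.14e-05) and HNRNPR (-1.26, SE 0.46, adjusted p = 0.0472), and neither was called when either Input library was left out, when no member passed. Of the 45 members measured in both lines, 9 had a higher ratio in Brg1 in both, 17 a lower ratio in both, 17 were higher in 22Rv1 and lower in LNCaP, and 2 were the other way round, which is 20%, 37.8%, 37.8% and 4.44%. Of all 6932 genes measured in both, the same shares were 64.1%, 8.09%, 26.8% and 1.07%. The lines were fitted apart and the difference between them was not tested.

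**Figure D2:**
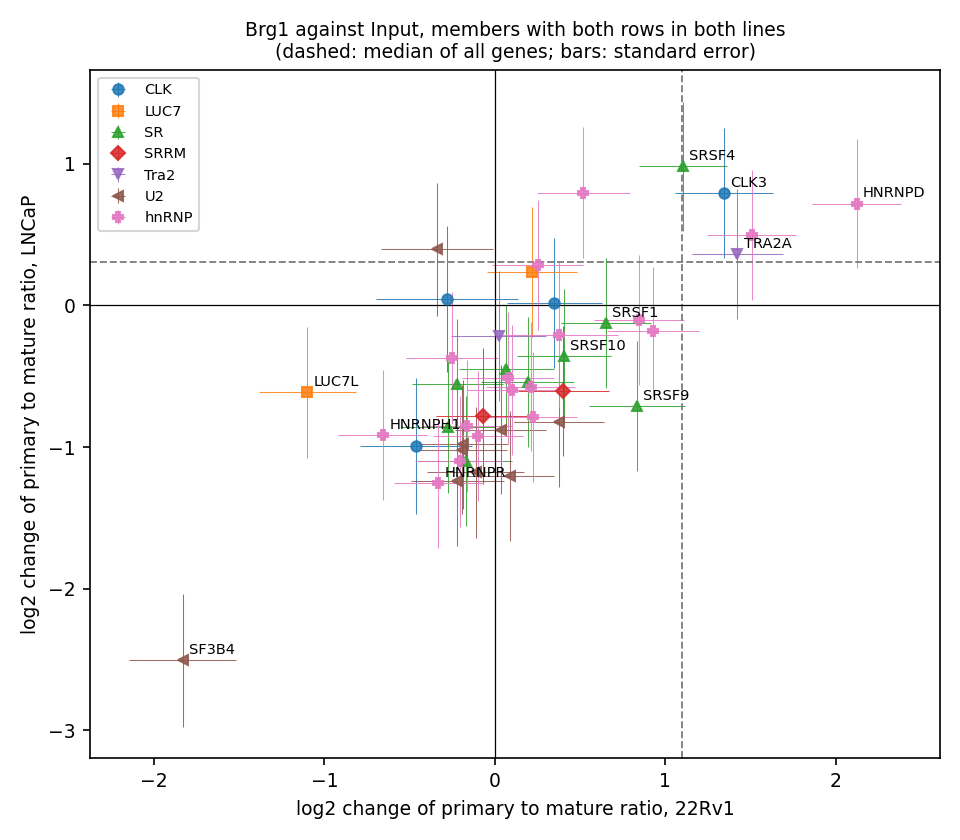
Log2 difference in primary to mature ratio, Brg1 minus Input, in 22Rv1 (horizontal axis) and LNCaP (vertical axis) for the 45 members measured in both lines, with bars of 1 standard error (SE) and dashed lines at the medians of all genes, 1.10 and 0.31. Most members sit below and to the left of both dashed lines, HNRNPD stands at the far right and SF3B4 at the bottom left.

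Members differ from the average gene in ways that bear on this ratio. Those with both rows were more abundant in 22Rv1 Input, with a median of 204 RPM against 60.4 RPM for all genes, were shorter, with a median RefSeq gene span of 18492 against 42796 bases, and had a lower Input ratio, with a log2 median of -1.78 against -0.31. Length moved with the result: the median ratio difference of all genes was 0.80 in the shortest quintile (spans up to 16908 bases) and 1.68 in the longest. Among the 22 members in the shortest quintile the median was -0.01, and 3 of them lay above the median of all genes in that quintile. Among the 37 members in the top quintile by Input level it was 0.08 against 0.99 for all genes, with 4 above. In LNCaP the shortest quintile gave 0.01 for all genes and -0.55 for the 19 members in it, of which 5 lay above. In the quintile of lowest Input ratio in 22Rv1, the median was 0.94 over all genes and 0.09 over the 29 members in it, with 3 above. In the top quintile by mature Input level it was 0.84 over all genes and 0.09 over 39 members, with 6 above. The part of these properties in the result was not tested.

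**Figure D3:**
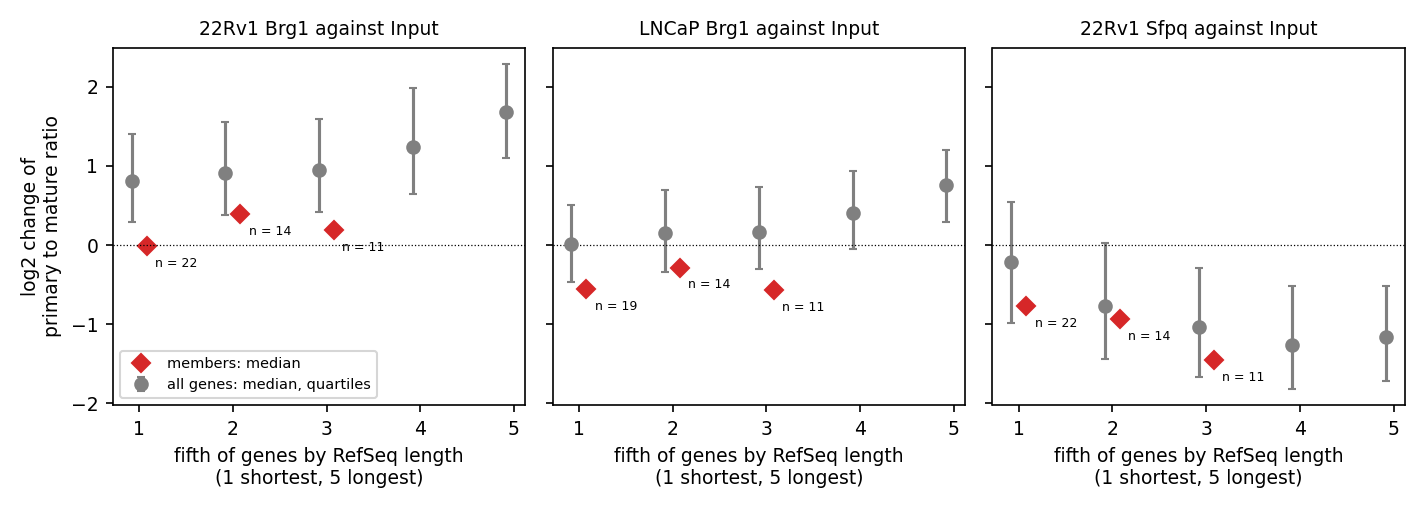
Median log2 difference in primary to mature ratio by quintile of gene span, shortest to longest, with all genes in grey (median and quartiles) and members in red (median, drawn where a quintile held at least 5 members). The grey medians of 22Rv1 Brg1 against Input rise from 0.80 to 1.68, and the red points stay between -0.01 and 0.39.

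Row by row, changes were measured in log2(RPM + 1), and their directions depend on scaling because they are shares of a library's reads. Of the 103 member rows in 22Rv1, 61 were called for Brg1 against Input, 4 higher and 57 lower, where 68.6% of all rows were called, 27.8% higher and 40.8% lower. Mature rows gave 0 higher and 35 lower of 55 (limma, 0 higher and 36 lower at an unadjusted p under 0.05, and 2 higher and 14 lower by edgeR), and primary rows 4 higher and 22 lower of 48. With scaling by trimmed mean of M values (TMM), the calls became 10 higher and 24 lower, and with the deposited scaling 1 higher and 22 lower, as the median of all rows moved from -0.26 to -0.03 and -0.69. Over all rows of the table the median was -0.77 for mature and 0.53 for primary rows, against -0.45 and -0.38 for the members. Of all mature rows 2.43% were called higher and 74.3% lower, and of the primary rows 51.4% and 9.76%. Of the members, 47 of 55 mature rows lay above the median of all mature rows and 4 of 48 primary rows above that of all primary rows. Without Brg1 replicate A 39 rows were called and without Input replicate A 36. With IgG in the fit none was called (4 at an unadjusted p under 0.05), and 18 of all 22542 rows were.

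In LNCaP 24 of 99 member rows were called in Brg1 against Input, 6 higher and 18 lower, where 27% of all rows were called, 13% higher and 14% lower. Mature rows gave 2 higher and 0 lower of 53 (0 lower at an unadjusted p under 0.05 and 0 by edgeR), and primary rows 4 higher and 18 lower of 46. The mature rows were HNRNPH2, an hnRNP named after its values were seen (0.71, SE 0.26, adjusted p = 0.025), and SF3B4 (0.97, SE 0.25, adjusted p = 0.00159). With the deposited scaling the median of all rows lay at -1.46 and the 89 member rows called were all lower, while with TMM 13 were called higher and 15 lower. Of 53 mature rows 44 lay above the median of all mature rows, and 6 of 46 primary rows above that of all primary rows. These calls rest on both Inputs: 2 rows were called without Input replicate A and 0 without Input replicate B, and with IgG in the fit 0 were (6 at an unadjusted p under 0.05).

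Calls of primary rows were also set side by side between the lines. Of the 45 member primary rows measured in both, 4 were called higher in Brg1 in both lines, CLK3, HNRNPD, SRSF4 and TRA2A, which are all 4 that were called higher in each line. Called lower in both were 17, which is 81% of the 21 called lower in 22Rv1 and 94.4% of the 18 in LNCaP, and 0 were called in opposite directions. Of all 10022 primary rows measured in both lines, 540 were called lower in both, 50.7% of those called lower in 22Rv1 and 66.3% of those in LNCaP. Called higher in both were 2285 of them, 45.4% and 96.9% of those called higher in each line. The 17 members lower in both were CLK1, HNRNPA1, HNRNPA2B1, HNRNPA3, HNRNPC, HNRNPH1, HNRNPR, LUC7L, SF3A2, SF3A3, SF3B1, SF3B3, SF3B4, SRRM2, SRSF5, SRSF7 and SRSF9, named after their values were seen.

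HNRNPD, also called AUF1, binds AU-rich elements and affects the decay of messenger RNA. Its primary row was at 200.8 and 181 RPM in the 22Rv1 Brg1 libraries, 64.1 and 65.5 in Input, 37.3 and 40.8 in Sfpq, and 42.9, 24.0 and 30.6 in IgG. The Brg1 libraries stood above every other library of the line, with a log2 difference from Input of 1.54 (SE 0.14, adjusted p = 1.82e-07). The mature row moved the other way, from 212 and 231 RPM in Input to 141 and 155 in Brg1 (-0.58, SE 0.15, adjusted p = 0.0032). In LNCaP the primary row was at 95.8 and 109 RPM in Brg1 and 52.3 and 49.0 in Input, without overlap, a difference of 0.998 (SE 0.25, adjusted p = 0.00107).

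CLK3, a kinase of SR proteins, had a primary row at 69.7 and 69.3 RPM in 22Rv1 Brg1 and 26.1 and 27.9 in Input, a log2 difference of 1.33 (SE 0.16, adjusted p = 3.19e-06), with 31.4 and 40.9 in Sfpq and 3.39, 0 and 36.7 in IgG. In LNCaP it was at 122 and 154 RPM in Brg1 and 74.7 and 63.9 in Input (0.98, SE 0.25, adjusted p = 0.00137). The groups did not overlap in either line. Its mature row lay at 42.4 and 38.6 RPM in Brg1 and 39.3 and 42.5 in Input of 22Rv1, and these overlapped.

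SRSF4, an SR protein, had a primary row at 326 and 299 RPM in 22Rv1 Brg1 and 172 and 159 in Input (0.91, SE 0.13, adjusted p = 2.1e-05), with 77.2 and 82.7 in Sfpq. In IgG it was at 242, 307 and 194 RPM, so IgG also stood above both Inputs and reached into the Brg1 range. In LNCaP it was at 139 and 156 RPM in Brg1 and 96.8 and 79.0 in Input (0.75, SE 0.25, adjusted p = 0.0181). TRA2A, a splicing activator of the Tra2 pair, showed the same kind of levels: its primary row was at 241 and 236 RPM in 22Rv1 Brg1, 117 and 105 in Input (1.10, SE 0.14, adjusted p = 4.92e-06) and 153, 329 and 89.6 in IgG. The IgG libraries of TRA2A spanned both the Input and the Brg1 values. In LNCaP Brg1 the row was at 89.2 and 103 RPM and in Input at 61.4 and 51.6 (0.76, SE 0.25, adjusted p = 0.0161).

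In 22Rv1 the calls of these 4 primary rows held without any single library, with adjusted p no higher than 0.00134. In LNCaP none was called without either Input, SRSF4 and TRA2A were also not called without Brg1 replicate B, and with the deposited scaling all 4 lay below 0, at -0.38 for CLK3, -0.36 for HNRNPD, -0.62 for SRSF4 and -0.61 for TRA2A, against the median of -1.46 over all rows.

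**Figure D4:**
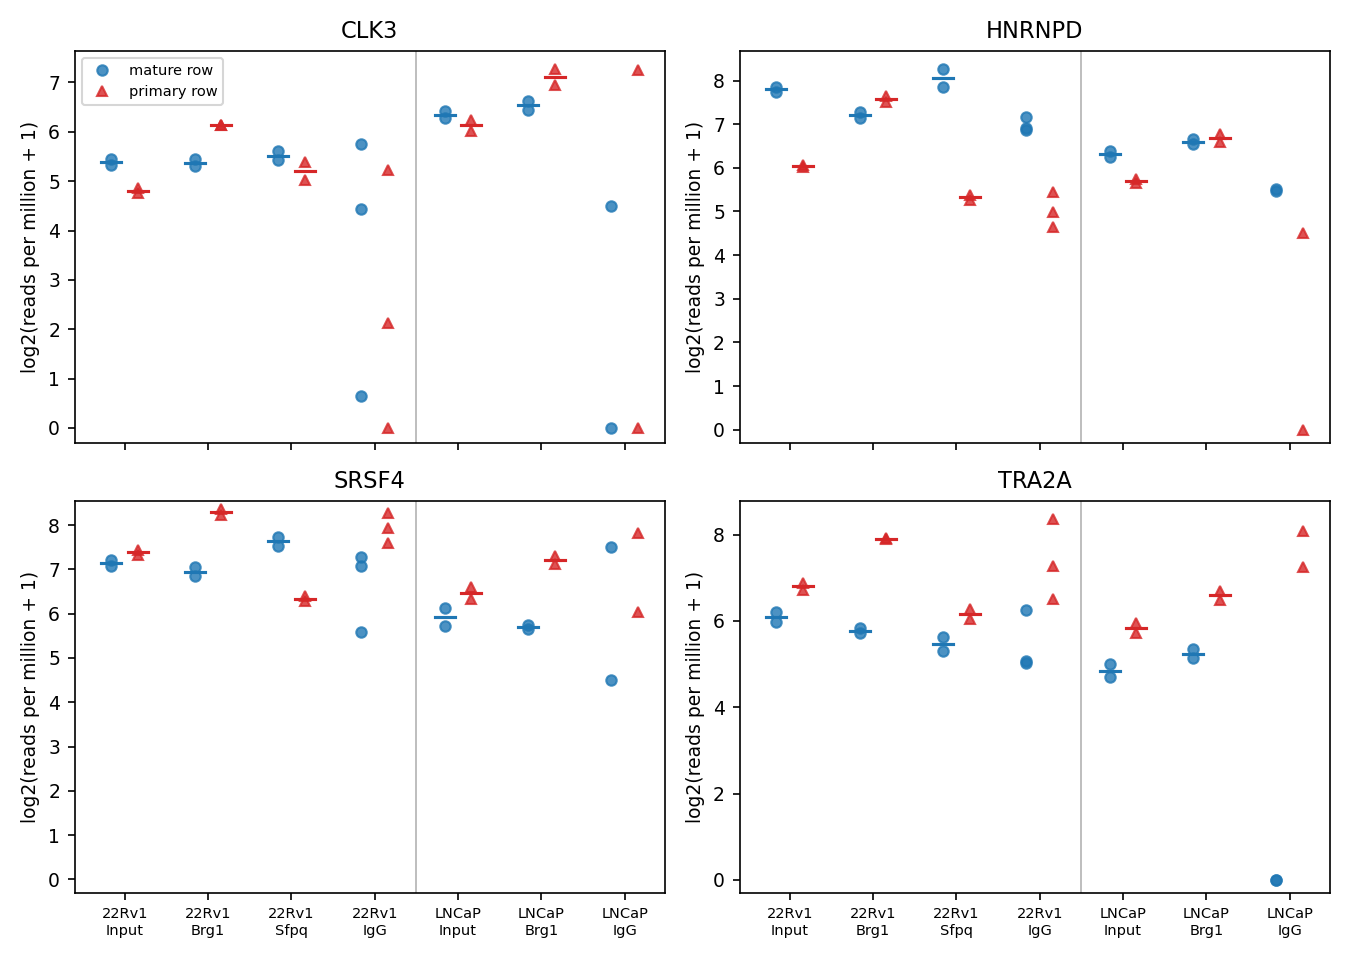
Level in log2(RPM + 1) of the mature and primary rows of CLK3, HNRNPD, SRSF4 and TRA2A in each library, by antibody and cell line, with bars at group means except for IgG. The Brg1 points of the primary rows lie above the Input points in both lines, and for SRSF4 and TRA2A the 22Rv1 IgG points reach the same levels.

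The promoters of a pair of members whose primary rows were higher in both lines and of a pair lower in both are printed as the sequence context of rows that moved the same way in both lines. Each line gives the 100 bases before the RefSeq start on GRCh38.p14, read along the gene, and capitals mark the GC box GGGCGG or its complement CCGCCC.
HNRNPD, chr4:82373992-82374091, minus strand: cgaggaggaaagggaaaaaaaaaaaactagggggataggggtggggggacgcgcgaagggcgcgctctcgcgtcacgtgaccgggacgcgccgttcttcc
SRSF4, chr1:29181901-29182000, minus strand: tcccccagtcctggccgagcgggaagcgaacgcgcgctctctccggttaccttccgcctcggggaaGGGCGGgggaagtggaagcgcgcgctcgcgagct
SF3B4, chr1:149927804-149927903, minus strand: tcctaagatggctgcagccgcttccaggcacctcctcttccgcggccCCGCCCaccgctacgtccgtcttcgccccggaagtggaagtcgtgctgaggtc
LUC7L, chr16:229450-229549, minus strand: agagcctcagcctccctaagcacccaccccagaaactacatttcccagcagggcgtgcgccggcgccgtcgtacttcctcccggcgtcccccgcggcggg
SRSF4 and SF3B4 hold 1 GC box each in this window, and the windows of HNRNPD and LUC7L hold none, so the box was found once in each pair. Over the 71 promoters of the 51 members that matched the RefSeq table, searched over 250 bases before the start on both strands, GGGCGG was found in 62% against 42.6% of all 35116 promoters. CCAAT was found in 36.6% of them against 32%, and TATAAA in 8.45% against 10.7%. The median GC content was 65.2% in member promoters and 58% in all, with 25 and 11 CG pairs. A match describes letters and not a bound site, and no binding to chromatin was measured here.

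SR genes code for the proteins that give the family its name. In 22Rv1 Brg1 against Input 9 of 12 mature SR rows were called lower (median -0.46), and of 10 primary rows 1 was called higher and 4 lower (median -0.27). Of all mature rows 74.3% were called lower, with a median of -0.77, and of all primary rows 51.4% higher and 9.76% lower. These class counts depend on scaling: with TMM the mature calls over all 55 members were 1 higher and 14 lower in place of 0 and 35, and the primary calls 9 higher and 10 lower in place of 4 and 22. SRSF2, which binds exonic enhancers and shuttles little from the nucleus, had a mature row at 119 and 130 RPM in Brg1 and 209 and 215 in Input (-0.77, SE 0.13, adjusted p = 0.000105), with 151 and 138 in Sfpq, so that both precipitates lay below Input. SRSF3, the smallest SR protein and also an adaptor of mRNA export, had a primary row at 19.5 and 20.4 RPM in Brg1, 34.0 and 31.0 in Input (-0.68, SE 0.19, adjusted p = 0.00572) and 9.10 and 6.53 in Sfpq. The primary row of SRSF7, another export adaptor, was at 21.0 and 18.5 RPM in Brg1 and 37.6 and 29.2 in Input (-0.72, SE 0.18, adjusted p = 0.00229). Both calls were lost without Input replicate A, at adjusted p up to 0.057. The largest decreases of mature rows were those of SRSF9, at 51.6 and 66.9 RPM in Brg1 and 153 and 160 in Input, and SRSF8, at 10.7 and 8.73 against 25.4 and 25.6, without overlap in either. In LNCaP the 11 mature SR rows lay between -0.30 and 0.04, and the primary row of SRSF7 was lower again, at 6.12 and 5.34 RPM against 12.1 and 9.72 (-0.82, SE 0.31, adjusted p = 0.0353). That LNCaP call was lost without Brg1 replicate B or either Input.

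The other member of the Tra2 pair, TRA2B, whose own transcript carries a poison exon, did not follow TRA2A. Its mature row was at 104 and 107 RPM in 22Rv1 Brg1 and 108 and 113 in Input (-0.07, SE 0.14, adjusted p = 0.677, and 0.17 with TMM). Its primary row was at 8.77 and 11.2 RPM in Brg1 and 10.5 and 10.0 in Input (-0.04, SE 0.26, adjusted p = 0.89), with overlapping libraries. Sfpq stood apart at 2.80 and 2.18 RPM (-1.70, SE 0.26, adjusted p = 5.22e-05).

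CLK1 and CLK4 are the kinases best known for introns that stay in the nucleus until the cell needs the kinase. Of CLK1 reads, 45.9% and 42.4% were in the primary row in 22Rv1 Brg1 against 54.8% and 50.3% in Input, and 37.0% and 36.7% in Sfpq, and in LNCaP 43.4% and 30.8% in Brg1 against 58.8% and 50.9%. Brg1 was below Input in both lines for this gene, without overlap, yet the ratio was not called (-0.46, SE 0.33, adjusted p = 0.203 in 22Rv1 and -0.99, SE 0.48, adjusted p = 0.161 in LNCaP). The primary row by itself was called lower in 22Rv1, at 12.9 and 14.4 RPM against 25.4 and 23.9 (-0.81, SE 0.18, adjusted p = 0.000816), and in LNCaP (-0.97, SE 0.27, adjusted p = 0.00277). CLK4 had 60.5% and 61.3% of its reads in the primary row in 22Rv1 Brg1, 68.1% and 62.8% in Input, and 46.5% and 42.0% in Sfpq, and its ratio in Brg1 was not called (-0.28, SE 0.42, adjusted p = 0.561).

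The hnRNP genes, which make up the largest class, had 14 of 21 mature rows called lower in 22Rv1 Brg1 against Input (median -0.51), and 1 primary row called higher and 8 lower of 18. The shares were 66.7% of mature rows lower, against 74.3% over the table, and 44.4% of primary rows lower, against 9.76%. HNRNPA1, which acts as a splicing repressor, had a mature row at 588 and 647 RPM in Brg1 and 1133 and 1194 in Input (-0.91, SE 0.16, adjusted p = 0.000109). Its primary row fell alongside, from 47.0 and 39.8 RPM to 27.0 and 20.9, so the ratio differed by 0.08 (SE 0.27, adjusted p = 0.81). Reads of HNRNPA1 can be shared with HNRNPA1L2 and with its many pseudogenes, which limits these levels. HNRNPA2B1, an RNA-binding protein of transport granules and splicing, had a primary row at 68.0 and 58.9 RPM in Brg1 and 91.0 and 91.9 in Input (-0.52, SE 0.14, adjusted p = 0.00378), and in LNCaP at 36.3 and 45.6 against 91.2 and 66.1 (-0.92, SE 0.25, adjusted p = 0.00292). HNRNPDL, an HNRNPD paralogue, fell in its mature row, from 202 and 210 RPM in Input to 138 and 129 in Brg1 (-0.62, SE 0.14, adjusted p = 0.000972). Its primary row was at 16.6 and 19.0 RPM in Brg1 and 26.6 and 20.5 in Input and was not called (-0.37, SE 0.19, adjusted p = 0.0856).

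HNRNPH1, which binds G-rich RNA, had 21.8% and 20.9% of its reads in the primary row in 22Rv1 Brg1 against 32.0% and 28.4% in Input, and in LNCaP 22.3% and 32.2% against 45.6% and 36.9%. The Brg1 libraries lay below the Inputs in both lines. Its ratio was called in 22Rv1 (-0.66, SE 0.26, adjusted p = 0.0202), a call lost in 3 of the 6 fits that left out 1 library, and not in LNCaP (-0.91, SE 0.46, adjusted p = 0.175). HNRNPH1 shares sequence with HNRNPH2, so reads can be split between them. HNRNPU, a scaffold-associated nuclear RNA-binding protein, had the lowest ratio difference of the 48 members in 22Rv1, at -2.24 (SE 0.27, adjusted p = 3.01e-13). That value came from a small primary row, at 3.49 and 1.61 RPM in Brg1, 11.3 and 13.4 in Input and 13.3 and 19.0 in Sfpq, beside a mature row at 876 and 913 RPM in Brg1 and 733 and 737 in Input (0.28, SE 0.15, adjusted p = 0.0978). In LNCaP the mature row was at 559 and 501 RPM in Brg1 and 360 and 363 in Input (0.55, SE 0.27, adjusted p = 0.109). The mature Brg1 libraries lay above the Inputs in both lines, without a call in either, and with the deposited scaling the differences were -0.14 and -0.82.

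U2 and U2AF genes code for factors that mark the branch point and the acceptor site. In 22Rv1 Brg1 against Input 8 of 11 mature rows and 7 of 10 primary rows were called lower, 72.7% and 70% of them against 74.3% and 9.76% of all mature and all primary rows, with the same dependence on scaling. SF3B1, the U2 subunit that contacts the branch point, had a primary row at 19.3 and 23.6 RPM in Brg1 and 33.0 and 29.7 in Input (-0.53, SE 0.18, adjusted p = 0.0149). This call was lost without Brg1 replicate A or Input replicate A. In LNCaP the row was at 13.0 and 11.5 RPM against 23.5 and 19.3 (-0.75, SE 0.26, adjusted p = 0.0225), a call lost without Brg1 replicate B or either Input. SF3B4, which sits near SF3B1 in the U2 snRNP, showed the clearest decrease of a primary row in both lines. It was at 3.89 and 3.67 RPM in 22Rv1 Brg1 and 14.9 and 21.8 in Input (-1.99, SE 0.26, adjusted p = 7.88e-06). Sfpq lay below Input as well, at 6.02 and 4.76 RPM. In LNCaP the primary row of SF3B4 was at 4.55 and 6.06 RPM in Brg1 and 14.5 and 20.2 in Input (-1.53, SE 0.29, adjusted p = 6.33e-06), a call lost without Input replicate B. Its mature row was at 56.1 and 48.2 RPM in LNCaP Brg1 against 25.9 and 26.1 in Input, without overlap, and at 30.3 and 45.7 against 38.5 and 45.4 in 22Rv1, where the libraries overlapped. The share of SF3B4 reads in the primary row was 11.4% and 7.43% in 22Rv1 Brg1 and 27.9% and 32.5% in Input, and 7.51% and 11.2% against 35.8% and 43.7% in LNCaP, so the 4 Brg1 values lay below all 4 Inputs.

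LUC7-like proteins belong to the U1 snRNP side of intron recognition, and SRRM1 and SRRM2 are large coactivators, SRRM2 being a core of nuclear speckles. LUC7L had most of its reads in the primary row, 57.6% and 54.8% in 22Rv1 Brg1 against 74.7% and 72.4% in Input, and 60.2% and 67.1% against 73.0% and 72.8% in LNCaP. Its primary row was at 48.3 and 43.0 RPM against 103 and 90.9 in 22Rv1 (-1.07, SE 0.16, adjusted p = 2.42e-05) and at 30.2 and 37.1 against 79.5 and 62.6 in LNCaP (-1.05, SE 0.25, adjusted p = 0.000522). In 22Rv1 Sfpq the primary row was at 42.7 and 55.6 RPM, also below Input, and the LNCaP call in Brg1 was lost without either Input. Brg1 stood below Input for LUC7L in both lines. LUC7L3 did not share this: its primary row was at 66.3 and 69.6 RPM in 22Rv1 Brg1 and 83.3 and 68.1 in Input, overlapping, and at 37.7 and 44.2 against 46.2 and 35.8 in LNCaP. SRRM2 had a primary row at 64.0 and 52.1 RPM in 22Rv1 Brg1 and 92.6 and 80.1 in Input (-0.57, SE 0.16, adjusted p = 0.00525), and at 38.2 and 51.7 against 100.1 and 68.5 in LNCaP (-0.88, SE 0.25, adjusted p = 0.00416). The 22Rv1 call of SRRM2 was lost without Brg1 replicate B or Input replicate A, and its LNCaP call without either Input.

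Sfpq gave another picture in 22Rv1. The Sfpq and Brg1 comparisons use the same Input libraries, so their values are given side by side and not as independent evidence. In Sfpq against Input 68 of 103 member rows were called, 21 higher and 47 lower, where 60.7% of all rows were called, 24.6% higher and 36.1% lower. Mature rows gave 20 higher and 10 lower of 55, with a median of 0.18 against 0.22 over all mature rows, and primary rows 1 higher and 37 lower of 48, with a median of -0.78 against -0.52. With the deposited scaling the median of all rows was -0.72 and the calls were 0 higher and 37 lower, and with TMM 27 higher and 41 lower. Without Input replicate A 45 rows were called, and with IgG in the fit none (6 at an unadjusted p under 0.05).

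Mature rows are given by class, beside 38.4% of all mature rows called higher and 20.3% lower. Of 21 mature hnRNP rows 10 were called higher, with a median of 0.29, whereas of 12 SR rows 1 was called higher and 6 lower, with a median of -0.32. Both SRRM rows and 2 of 4 CLK rows were called higher, 5 U2 rows were higher and 3 lower of 11, and of the Tra2 and LUC7-like rows 1 was called, TRA2A, which was lower. The difference between the classes was not tested. With the deposited scaling 10 of the 55 mature rows of all classes lay above 0, and 0 were called higher and 6 lower (limma), so the higher calls depend on the scaling. SRRM2 had a mature row at 2484 and 2546 RPM in Sfpq and 1151 and 1165 in Input (1.12, SE 0.16, adjusted p = 2.17e-05), against 781 and 859 in Brg1. HNRNPUL2, an hnRNP U relative, had a mature row at 241 and 239 RPM in Sfpq and 99.7 and 97.1 in Input (1.28, SE 0.13, adjusted p = 1.95e-06). Its primary row held 0 reads in both Sfpq libraries, which allows up to 0.420 and 0.408 RPM, and was at 5.51 and 3.43 RPM in Input. SF3A1, another U2 subunit, rose in its mature row from 180 and 188 RPM in Input to 323 and 337 in Sfpq, and SF3B1 from 167 and 189 to 318 and 257 (0.69, SE 0.14, adjusted p = 0.000769). In the other direction, U2AF1, the subunit that reads the acceptor AG, was at 4.20 and 0.544 RPM in Sfpq and 12.4 and 21.5 in Input in its mature row (-2.62, SE 0.41, adjusted p = 6.89e-05, and -3.49 to -1.74 with 1 library left out). U2AF1 has a near-identical annotated copy, so its reads may be split.

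**Figure D5:**
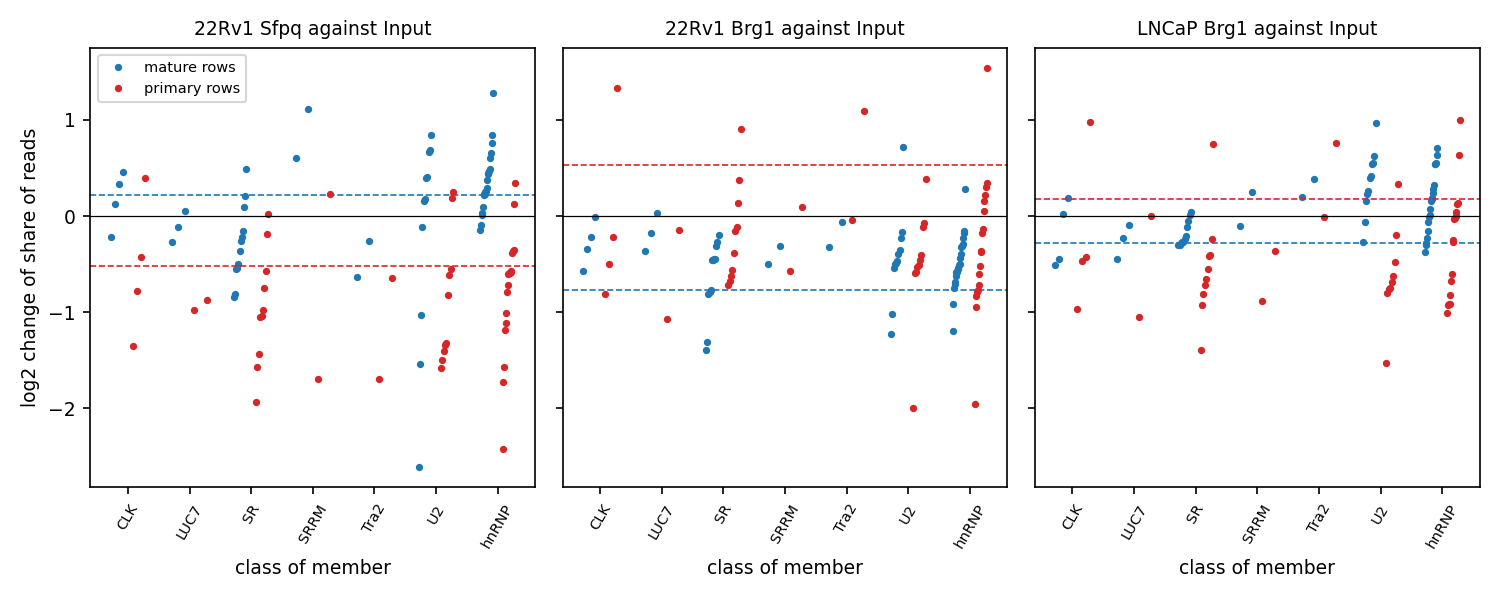
Log2 difference from Input of each member row, by class, with mature rows in blue, primary rows in red and dashed lines at the medians of all mature and all primary rows, for Sfpq and Brg1 in 22Rv1 and Brg1 in LNCaP. In Sfpq the mature hnRNP points centre on 0.29 and the mature SR points on -0.32, and in both Brg1 panels most red points lie below the dashed red line.

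The ratio of primary to mature rows fell in Sfpq by a median of 0.89 on the log2 scale over members and by 0.91 over all 8246 genes. It was called higher in 1 member and lower in 35 of 48, which is 2.08% and 72.9%. Of all genes 67.3% were called, 9.94% higher and 57.3% lower. In the shortest quintile by gene span the median was -0.77 over 22 members and -0.21 over all genes, with 6 members above. In the quintile of lowest Input ratio it was -0.89 over 29 members and -0.63 over all genes, with 8 above. In the top quintile by Input level it was -0.87 over 37 members and -1.12 over all genes, with 24 above. The part of these properties was not tested. Among the 35 members called lower was HNRNPUL2, with 0 primary reads in Sfpq, so that the size of its ratio depends on the added 1 and is not given. The lowest of the others were HNRNPR (-2.49, SE 0.26), SRRM1 (-2.29, SE 0.27) and SF3A1 (-2.24, SE 0.26). HNRNPR, a relative of the SYNCRIP RNA-binding protein, had 7.86% and 8.64% of its reads in the primary row in Sfpq, 35.6% and 32.6% in Input and 31.1% and 27.1% in Brg1. SF3B1 had 3.73% and 4.21% in Sfpq, 16.6% and 13.6% in Input and 12.8% and 13.8% in Brg1. In both genes Sfpq stood below all other 22Rv1 libraries of Brg1 and Input. The member with a higher ratio was U2AF1 (1.80, SE 0.33, adjusted p = 7.18e-07), which without Sfpq replicate B was at 0.68 and no longer called (adjusted p = 0.084).

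Set against Sfpq directly, Brg1 gave 67 of 103 member rows called, 28 higher and 39 lower, where 78.3% of all rows were called, 40.1% higher and 38.2% lower. The 39 lower were mostly mature (34 of 55 mature rows, with 2 higher), and the 28 higher mostly primary (26 of 48, with 5 lower). With the deposited scaling 16 were higher and 10 lower. The ratio was called higher in Brg1 in 34 members and lower in 3 of 48, with a median of 1.12 against 2.04 over all genes, where 85.1% of genes were called, 82.6% higher and 2.5% lower. Apart from HNRNPUL2, with its 0 primary reads in Sfpq, HNRNPD (3.11, SE 0.26), SRRM1 (2.69, SE 0.27) and SRSF4 (2.64, SE 0.26) lay highest, and were named after their values were seen. SRSF4 had 74.1% and 69.5% of its reads in the primary row in Brg1. It had 53.9% and 54.3% in Input and 26.6% and 31.0% in Sfpq, so these 3 groups did not overlap. In IgG it was at 60.9%, 86.6% and 59.0%, above both Inputs and on both sides of the Brg1 values. HNRNPD showed the same order of Brg1, Input and Sfpq, at 58.8% and 53.9%, 23.2% and 22.1%, and 10.8% and 15.1%. In IgG it was at 26.5%, 17.1% and 17.6%, below both Brg1 values and overlapping Input. The 3 members lower in Brg1 were U2AF1 (-2.14), HNRNPU (-2.10) and SF3A2 (-0.59). With IgG in the fit 0 members were called (6 at an unadjusted p under 0.05, limma).

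The IgG libraries bound what the antibody background can show. In 22Rv1 IgG against Input, 5 member rows were called, all lower, where 9.13% of all rows were called, 0.382% higher and 8.74% lower. They were the primary rows of TRA2B, SF3B6 and SRSF12 and the mature rows of SRSF12 and HNRNPA1L2. In Brg1 against IgG 4 were called, all higher and all primary, where 9.6% of all rows were called, 8.65% higher and 0.954% lower: HNRNPD (2.56, adjusted p = 0.00326), SRSF12 (3.17, adjusted p = 0.00582), SF3B6 (2.08, adjusted p = 0.0336) and TRA2B (2.74, adjusted p = 0.0367). Without Brg1 replicate A or Brg1 replicate B none was called, without IgG replicate A 20 and without IgG replicate C 24. The primary rows of TRA2B, SF3B6 and SRSF12 were not called between Brg1 and Input and were low in IgG. TRA2B.primary was at 3.39, 0 and 0 RPM in IgG, where 0 reads in the 2 shallower libraries allow 1.71 and 6.11 RPM. Of the 4, HNRNPD was also called above Input. The ratio gave 0 member calls in IgG against Input, where 0% of genes were called, and 0 in Brg1 against IgG, where 0.0728% were, 0.0606% higher and 0.0121% lower (limma, 5 and 6 members at an unadjusted p under 0.05).

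Summing both rows of a gene gives its whole share of reads. In 22Rv1 Brg1 against Input 5 of 55 members were called higher and 41 lower, where 71.4% of genes were called, 32.7% higher and 38.7% lower. The 5 were TRA2A (0.71), CLK3 (0.69), SRSF4 (0.51), U2AF1 (0.48) and HNRNPU (0.26), named after their values were seen. In Sfpq against Input 15 were higher and 17 lower, where 53.9% of genes were called, 25.3% higher and 28.6% lower, with HNRNPUL2 (1.22) and SRRM2 (1.07) highest and SF3B5 (-1.54) and U2AF1 (-1.11) lowest. In LNCaP 7 were higher, CLK3, HNRNPD, HNRNPH2, HNRNPL, HNRNPU, SF3A1 and TRA2A, and 1, LUC7L, was lower, where 32.1% of genes were called, 17.7% higher and 14.4% lower. With the deposited scaling, where the gene medians lie at -0.53, -0.59 and -1.37, the calls were 7, 7 and 53 members, all lower.

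Other genes of the splicing pathway were measured for comparison, 54 core spliceosome genes and 59 further regulators and kinases. In 22Rv1 Brg1 against Input the ratio was called higher in 15 and lower in 1 of 46 core genes (median 0.36), and higher in 17 and lower in 3 of 52 regulators (median 0.29), beside 11 and 4 of 48 members (0.08) and 1.10 over all genes. In LNCaP the medians were -0.55 over 45 core genes, -0.35 over 53 regulators, -0.56 over the members and 0.31 over all genes. In Sfpq against Input they were -1.22 and -1.19 over core genes and regulators, beside -0.89 over the members.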

How the data were processed

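RIP-seq was measured in 15 libraries of 2 cell lines, grouped by the antibody and cell line in their titles. The deposited values are a signal, normalized counts, in 1 table per line, and every value was a whole multiple of 1 factor per library (100% whole within 0.001 read). How the authors set that factor is not given in the sources used here. The submitters' processing notes name STAR 2.6, Salmon 0.8.2, deepTools 2.5.2, DESeq2 and hg38, with no role or order. Per the labels' protocols, Input was diluted towards the strongest precipitate, ERCC spike-in was added in equal volume, and libraries were ribosome-depleted and stranded.

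Reads were recovered by dividing by the factor and expressed as RPM, scaled to 1000000 reads over a library's rows. How reads were divided between the mature and primary rows of a gene is not stated in the sources used here, and every ratio rests on that division. The test was limma 3.58.1 in R 4.3.3 (lmFit, eBayes with trend) on log2(RPM + 1), for rows with a mean of at least 1 RPM, with Benjamini-Hochberg adjustment over all rows and calls at an adjusted p under 0.05. Comparisons without IgG were fitted without the IgG libraries, 6 in 22Rv1 and 4 in LNCaP, and those with IgG on all 9. Every adjusted p is from limma unless edgeR 4.0.16 (quasi-likelihood, TMM) is named. The method was tested on simulated data. Those data gave all rows the same spread beyond counting error, so they do not show how reliable the calls are in these libraries. Fold changes on this scale understate changes of low rows.

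Named genes were SRSF2, SRSF3, SRSF7, TRA2B, CLK1, CLK4, HNRNPA1, HNRNPA2B1, HNRNPDL, HNRNPH1, HNRNPU, LUC7L3, SRRM2 and SF3B1, and up to 3 rows per direction with the largest change among those called, with a mean of at least 10 RPM and no overlap between groups. SRSF4 and, outside the comparisons where that rule names them, CLK3, HNRNPD, TRA2A, SF3B4, LUC7L and HNRNPUL2 were named after their values were seen. The members, lists and design were chosen with earlier results of these data known. No 2 libraries of the same group and line were duplicates, since the chi-square of every such pair was at least 2.46 times its degrees of freedom. Pairs across groups or lines were not compared. Intervals and limits from 0 reads (3 reads) cover counting error only, since these reads carry no stated molecular identifiers and may be copies of 1 molecule. Promoters and gene spans come from RefSeq on GRCh38.p14, matched by symbol, and were used only within that build. Alternatives were pseudocounts of 0.1 and 5, no filter or a mean of 10, TMM or deposited scaling, the replicate letter as a block, other sets of groups, edgeR, and leaving out each library. A block with crossed letters in LNCaP was added after seeing the data.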

Additional observations from a re-analysis of the deposited data

Results flagged for a closer look

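For 15 members the mature row was lower in both Brg1 libraries than in both Input libraries in one line and higher in both in the other. They are 28.3% of the 53 mature member rows measured in both lines, and 9% of all 9377 such mature rows did the same. The difference between the lines was not tested, the lines were fitted separately, and directions of mature rows depend on scaling (with the deposited scaling LNCaP mature rows lay below 0). The log2 differences, 22Rv1 before LNCaP, were -0.58 and 0.28 for HNRNPD, -0.50 and 0.71 for HNRNPH2, -0.39 and 0.54 for HNRNPK, -0.23 and 0.64 for HNRNPL, and -0.44 and 0.24 for HNRNPR. Among the U2 subunits they were -0.49 and 0.62 for SF3A1, -0.23 and 0.55 for SF3A2, -0.47 and 0.42 for SF3A3, -0.35 and 0.23 for SF3B1, -0.40 and 0.54 for SF3B2, and -0.50 and 0.40 for SF3B3. SRRM1 gave -0.31 and 0.25, TRA2A -0.33 and 0.39 and TRA2B -0.066 and 0.20. LUC7L went the other way, at 0.029 and -0.44. Of these 15, 10 were called lower in 22Rv1 and 1, HNRNPH2, was called higher in LNCaP (limma, adjusted p under 0.05).

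In the primary rows 1 member behaved in this way, SRSF10, an SR-like splicing repressor, at 0.14 and -0.41. In the ratio 4 did: HNRNPL at 0.10 and -0.60, SF3A1 at 0.38 and -0.82, SRRM1 at 0.40 and -0.61, and SRSF10 at 0.41 and -0.36. Of all primary rows 1.84% did so and of all ratios 4.93%, against 2.22% and 8.89% of the members. None of these differences between the lines was tested either.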

How the results depend on the processing

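Counts of members called depended on the libraries, the scaling and the groups fitted. Leaving out 1 library at a time gave 36 to 71 (61 with every library) member rows called in 22Rv1 Brg1 against Input, 45 to 67 (68 with every library) in Sfpq against Input, 59 to 68 (67 with every library) in Brg1 against Sfpq, 0 to 28 (5 with every library) in IgG against Input, 0 to 24 (4 with every library) in Brg1 against IgG and 0 to 28 (24 with every library) in LNCaP Brg1 against Input. For the ratio the ranges were, in the same order, 9 to 15 (15 with every library), 24 to 36 (36 with every library), 33 to 38 (37 with every library), 0 to 5 (0 with every library), 0 to 8 (0 with every library) and 0 to 3 (2 with every library). For whole genes they were 35 to 47 (46 with every library) for Brg1 and 22 to 33 (32 with every library) for Sfpq in 22Rv1 and 2 to 14 (8 with every library) in LNCaP. A fit of all groups of the line, IgG included, called 0 member rows for Brg1 against Input, 0 for Sfpq against Input and 2 for Brg1 against Sfpq in 22Rv1, 0 in LNCaP, and 0 members in each ratio and each whole-gene comparison (limma, where the ratios had 2, 3, 6 and 0 members at an unadjusted p under 0.05 and the whole genes 8, 4 and 2). The deposited scaling called 23, 37, 26, 103, 103 and 89 member rows in the order of the row comparisons, and 7, 7 and 53 members as whole genes. TMM scaling called 34 rows for Brg1 against Input, 2 for IgG against Input and 28 in LNCaP, and 13 whole genes in LNCaP, and edgeR called 36, 0, 26 and, for Brg1 against IgG, 2 rows. For IgG against Input and Brg1 against IgG, a pseudocount of 0.1 gave 0 and 2 rows, a minimum mean of 10 RPM 0 and 1, and a fit of only the 2 groups 3 and 2. The letters were not taken as pairs, since libraries that share one deviated with correlations of -0.146 to 0.015 in 22Rv1 and -0.354 in LNCaP. With the replicate block 23, 17 and 2 member rows were called for IgG against Input, Brg1 against IgG and LNCaP, 3, 1 and 0 members in their ratios and 3 whole genes in LNCaP, and counts of the other comparisons stayed within 1.5 times. Crossing the LNCaP letters, chosen after seeing the data, called 49 member rows, 30 ratios and 26 whole genes. The cause of these shifts was not tested.

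Named rows and ratios changed sign as follows (log2 differences). With the deposited scaling, where the median of all rows lies below 0, the sign turned in 22Rv1 Sfpq rows CLK1 -0.040, HNRNPA1 -0.51, HNRNPA2B1 -0.42, HNRNPDL -0.29, HNRNPH1 -0.49, HNRNPU -0.027, HNRNPU primary -0.15, SRRM2 primary -0.29, CLK3 primary -0.11 and SF3B4 -0.34. In 22Rv1 Brg1 rows it turned for HNRNPU -0.14. In LNCaP Brg1 rows it turned for CLK1 -1.35, HNRNPA2B1 -1.19, HNRNPDL primary -1.37, HNRNPU -0.82, LUC7L3 primary -1.37, SF3B1 -1.14, SRSF3 -1.37, SRSF7 -1.33, TRA2B -1.17, HNRNPD primary -0.36, CLK3 primary -0.38, SF3B4 -0.38, SRSF4 primary -0.62 and TRA2A primary -0.61. With TMM the sign turned in 22Rv1 Sfpq rows LUC7L3 0.035. In 22Rv1 Brg1 rows it turned for LUC7L3 primary 0.086, TRA2B 0.17, TRA2B primary 0.17 and SF3B4 0.066. In LNCaP Brg1 rows it turned for HNRNPH1 0.079 and TRA2B primary 0.064. In edgeR the sign turned in 22Rv1 Sfpq rows LUC7L3 0.037. In 22Rv1 Brg1 rows it turned for LUC7L3 primary 0.078, TRA2B 0.17, TRA2B primary 0.20 and SF3B4 0.092. In LNCaP Brg1 rows it turned for HNRNPH1 0.087 and TRA2B primary 0.094. With 1 library left out at a time, giving a lowest and a highest value, the sign turned in 22Rv1 Sfpq rows HNRNPA1 -0.14 to 0.16, HNRNPA2B1 -0.094 to 0.29 and HNRNPH1 -0.13 to 0.19. In 22Rv1 Brg1 rows it turned for TRA2B primary -0.20 to 0.12 and SF3B4 -0.45 to 0.13. In LNCaP Brg1 rows it turned for CLK1 -0.22 to 0.27, HNRNPA2B1 -0.011 to 0.38, HNRNPDL primary -0.19 to 0.19, HNRNPH1 -0.13 to 0.11, LUC7L3 primary -0.18 to 0.18, SRSF3 -0.15 to 0.16, SRSF7 -0.13 to 0.22 and TRA2B primary -0.41 to 0.38. In 22Rv1 Sfpq ratios it turned for HNRNPU -0.47 to 0.17, CLK3 -0.0057 to 0.55 and TRA2A -0.28 to 0.26. In 22Rv1 Brg1 ratios it turned for HNRNPA1 -0.17 to 0.32, SRRM2 -0.28 to 0.14 and TRA2B -0.11 to 0.16. In LNCaP Brg1 ratios it turned for CLK4 -0.44 to 0.53, HNRNPDL -0.070 to 0.64 and TRA2B -0.56 to 0.13. The cause was not tested.

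Depth limits the IgG comparisons, as LNCaP IgG held 171 and 260 member reads in all. With 2 libraries in each group but 22Rv1 IgG, a single library can decide a call. A p that misses the threshold does not show that levels are alike.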

Other observations

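Summed over the reads of a class, the percentage in primary rows differed between classes and lines. For the 4 CLK genes it was 50.01% and 49.90% in 22Rv1 Brg1, 40.0% and 38.1% in Input and 27.5% and 30.8% in Sfpq, and 51.1% and 52.7% in LNCaP Brg1 against 43.0% and 42.6% in Input. Over all rows the percentage was also higher in Brg1, at 64.2% against 36.5% in 22Rv1 and 55.7% against 38.7% in LNCaP. The 4 genes did not share a direction: CLK3 was at a mean of 63.2% in Brg1 and 39.8% in Input of 22Rv1 and 59.9% and 46.2% in LNCaP. In the same order, CLK1 was at 44.1% and 52.5% in 22Rv1 and 37.1% and 54.8% in LNCaP. CLK4 was at 60.9% and 65.5% in 22Rv1 and 57.4% and 56.6% in LNCaP, and CLK2 at 32.7% and 27.6% in 22Rv1 and 28.87% and 28.85% in LNCaP. The LNCaP libraries of CLK4 and CLK2 overlapped. For the SR genes it was 31.3% and 28.6% in 22Rv1 Brg1 against 18.7% and 17.9% in Input. In LNCaP it was 20.6% and 27.1% against 22.5% and 20.1%, where the groups overlapped. SRSF4 weighs most in the 22Rv1 sums, with its primary row at 326 and 299 RPM in Brg1 and 172 and 159 in Input. It was also at 242, 307 and 194 RPM in IgG. No other SR primary row passed 37.6 RPM in the 22Rv1 Brg1 and Input libraries. For the U2 and U2AF genes the 22Rv1 groups overlapped, at 23.5% and 19.6% in Brg1 and 20.8% and 20.1% in Input, and in LNCaP Brg1 lay below Input, at 11.0% and 16.5% against 27.1% and 20.7%. Within a class the most abundant rows weigh most in these sums, and no test was run on them.

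The LNCaP IgG libraries held 171 and 260 member reads. Of these 36.8% (95% Wilson interval 30.0 to 44.3) and 31.9% (26.6 to 37.8) were in primary rows, where LNCaP Brg1 had 16.5% and 23.5% and Input 26.6% and 21.9%. Over all rows the means were 66.8% in IgG, 55.7% in Brg1 and 38.7% in Input.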
